A study of Mus musculus with 6 samples.

Results

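The locus described here is the region around Bach2 on mouse chromosome 4, from 32250000 to 32750000 in the build mm9, a window of 500 kb. It was chosen by the positions of the peaks themselves, and by which of them recurred in both wild-type libraries, after earlier results of these data had shown groups of T-bet peaks there. Every peak that touched the window was taken as a member, from the 3 peak lists deposited for the series. These were 42 peaks of 8925: 0 of 78 in the T-bet knockout (KO) list, 32 of 7996 in the wild-type (WT) replicate 1 list and 10 of 851 in the WT replicate 2 list. Their number, spacing, scores and sharing between replicates are therefore given as a description, with no test.

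Bach2 is a transcription factor of the BTB and basic leucine zipper class that pairs with small Maf proteins and mostly represses its targets. In CD4 T cells it holds back effector programmes, including the gene for Blimp-1 (Prdm1), and mice that lack it form fewer regulatory T cells and develop inflammatory disease. T-bet (Tbx21) is the T-box factor that directs T helper 1 differentiation, and the study set out to locate its binding sites in regulatory T cells.

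T-bet was precipitated from induced regulatory T (iTreg) cells with a custom rabbit serum, and the bound DNA was sequenced (ChIP-seq). One library came from T-bet KO iTreg cells and 2 came from WT iTreg cells, all of the Balb/c strain, from mice of 4 to 10 weeks; the labels name no allele for the KO. In every group, naive CD4 T cells were stimulated on antibodies to CD3 and CD28, each at 10 µg/ml, and cultured for 7 days with TGF-β1 at 33 ng/ml and IL-2 at 20 ng/ml, so these are cells made regulatory in culture and not cells taken from a tissue. The KO library stands for what the serum precipitates without T-bet, but only as a single library and through peaks that passed a threshold. The labels do not say whether the WT replicates came from separate mice or cultures. Only peaks that passed the authors' threshold are in the lists, with a score per peak that is the authors' own value; the lowest score in any list was 70.10. Read depth is unknown, so scores are compared only within a list, and a missing peak does not show that no T-bet was bound.

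The Bach2 window held T-bet peaks in both WT libraries and none in the KO library. The KO list had 0 peaks on the whole of chromosome 4, against 511 in WT replicate 1 and 52 in WT replicate 2. With 78 peaks in all, the KO list could hold few anywhere: over the genome a KO peak lay on 0.550% of WT replicate 1 peaks and 5.41% of WT replicate 2 peaks. The deposited names of the KO and replicate 2 lists start with one number, which may or may not mark a batch, and that of replicate 1 with another. WT replicate 2, which shares that number with the KO, had 10 peaks in the window, but the window was chosen for its WT peaks. Of 5288 other windows of 500 kb, 5233 also held 0 KO peaks. Whether a batch bears on these counts was not tested.

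Peaks of the WT replicates met at 9 sites in the window, where a meeting means at least 1 bp in common. They comprised 9 of the 10 WT replicate 2 peaks (90.0%, against 85.4% of that whole list) and 10 of the 32 WT replicate 1 peaks (31.2%, against 9.50% of that whole list). None of the 9 sites had a KO peak; without KO peaks, the genome-wide share of WT replicate 1 peaks was 9.08%. The window thus held 1.38% of the 726 shared WT replicate 1 peaks of the series, 0.400% of the WT replicate 1 list and 1.18% of the WT replicate 2 list. Nothing is read from these shares about T-bet at Bach2, since the replicates' shared peaks entered the choice of the window.

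**Figure D1:**
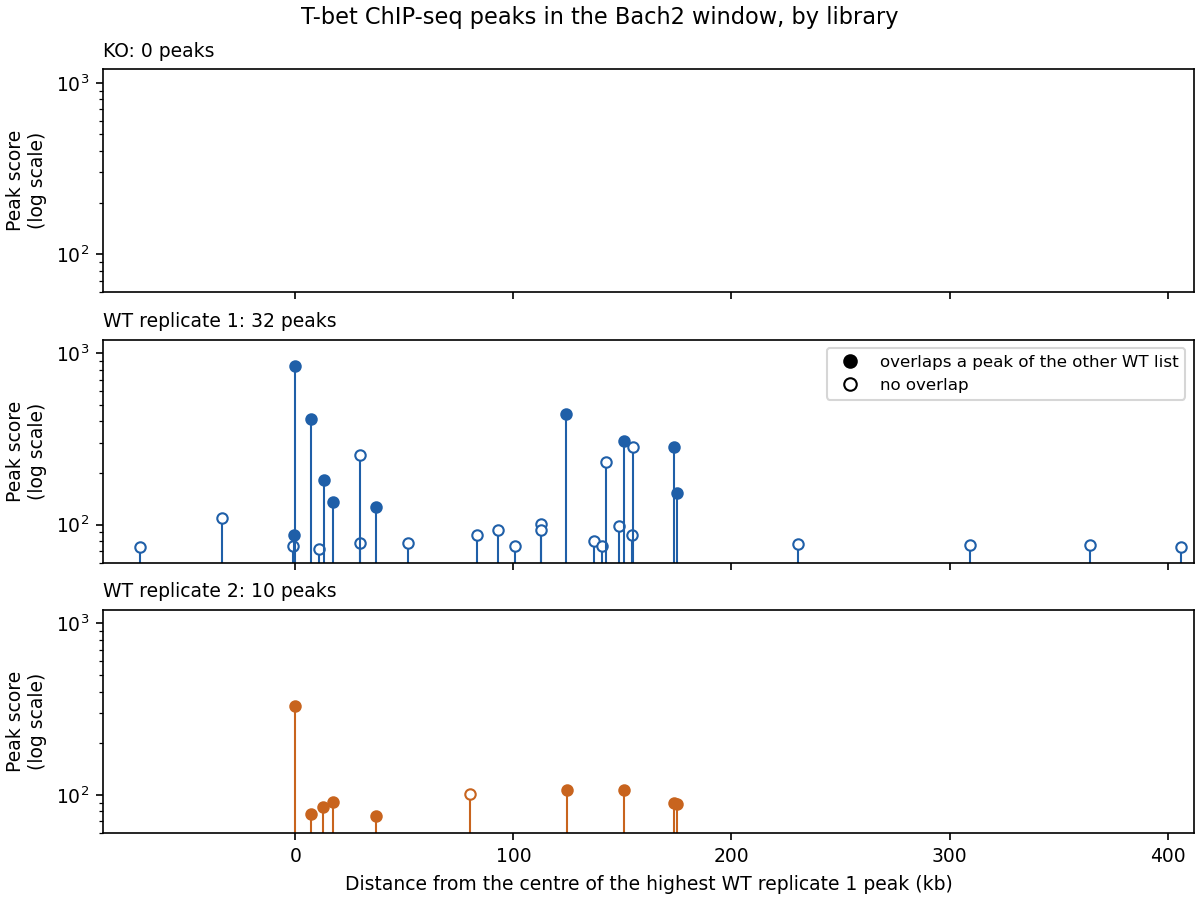
Peaks of the Bach2 window in the KO, WT replicate 1 and WT replicate 2 libraries, as the distance in kb from the centre of the highest WT replicate 1 peak, against the peak score on a log scale. Filled points overlap a peak of the other WT list and open points do not; the KO panel is empty, and the filled points lie in 2 groups with WT replicate 1 scores up to 843.29 and 439.38.

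Joined where at most 50 kb lay between neighbours, the shared sites formed 2 clusters, with 86.9 kb between them. The first ran from 32337386 to 32375205, over 37.8 kb, and held 5 sites. The second ran from 32462110 to 32512918, over 50.8 kb, and held 4 sites. Together they spanned 175.5 kb of the 500 kb window.

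The first cluster opened with the strongest site of the locus. WT replicate 1 had a peak from 32337605 to 32338342 with a score of 843.29, and WT replicate 2 one from 32337334 to 32338399 with a score of 331.50. These were the 44th highest peak of the 7996 in replicate 1 and the 28th highest of the 851 in replicate 2. The site was the highest of the window in both lists and the widest, at 738 bp in replicate 1 and 1066 bp in replicate 2. A second, weak replicate 1 peak lay beside it, from 32337386 to 32337564, with a score of 87.05 and rank 5758. The single replicate 2 peak covered both, which left 40 bp between them in replicate 1.

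The other 4 sites of the first cluster followed at gaps of 6.7, 5.5, 3.7 and 19.6 kb. At the next, replicate 1 had a peak from 32345015 to 32345499 with a score of 413.94 (rank 276) and replicate 2 one from 32345040 to 32345507 with a score of 77.19 (rank 744). It was among the strongest replicate 1 peaks of the locus and among the weakest of replicate 2. The third site had replicate 1 and 2 peaks from 32350972 to 32351318 and from 32350632 to 32351267, with scores of 180.69 (rank 1700) and 84.51 (rank 642). At the fourth, the peaks ran from 32355066 to 32355322 and from 32355082 to 32355366, with scores of 135.94 (rank 2776) and 90.66 (rank 555). At the fifth, they ran from 32374939 to 32375205 and from 32374949 to 32375218, with scores of 126.70 (rank 3083) and 75.71 (rank 759). From shared site to shared site, the highest replicate 1 score fell along the chromosome. An unshared replicate 1 peak with a score of 254.73 lay between the last 2 of these sites. The last 4 replicate 2 scores lay close together, between 75.71 and 90.66.

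The second cluster held the next strongest site. Its first site had a replicate 1 peak from 32462110 to 32462533 with a score of 439.38 (rank 236) and a replicate 2 peak from 32462150 to 32462551 with a score of 107.15 (rank 434). In both lists it ranked directly after the strongest site of the window. The second, 25.8 kb on, had peaks from 32488336 to 32488844 and from 32488364 to 32488781, scoring 308.08 (rank 559) in replicate 1 and 106.39 (rank 436) in replicate 2. The last 2 sites lay 22.6 kb further on and 0.8 kb apart. In replicate 1 they ran from 32511466 to 32511835 and from 32512644 to 32512918, with scores of 284.86 (rank 681) and 152.91 (rank 2263). In replicate 2 they ran from 32511308 to 32511826 and from 32512604 to 32512955, with scores of 89.17 (rank 582) and 88.55 (rank 594). Both libraries thus resolved this pair as separate peaks.

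**Figure D2:**
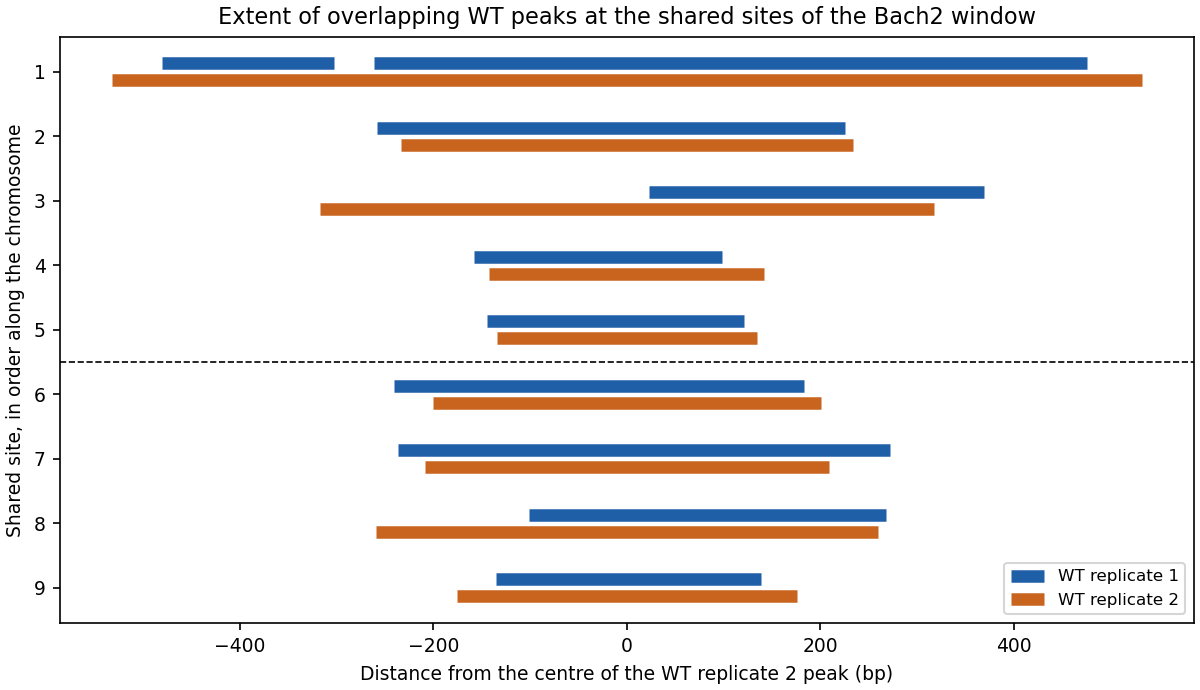
Extent of the WT replicate 1 and WT replicate 2 peaks at the 9 shared sites, numbered along the chromosome, as the distance in bp from the centre of the WT replicate 2 peak; the dashed line parts the clusters. At 8 sites 1 peak meets 1 peak, and at site 1 a single 1066 bp WT replicate 2 peak spans 2 WT replicate 1 peaks.

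Shared peaks were defined by their overlap, which by itself limits how far apart they can lie; the distances are given as a description. At the sites where 1 peak met 1 peak, the midpoints lay 1.5 to 195.5 bp apart, and the overlap took up 82.1 to 100.0% of the replicate 1 peak and 46.5 to 100.0% of the replicate 2 peak. The largest shift was at the third site of the first cluster, where the replicate 2 peak reached further to the left. At the strongest site the midpoints of the high replicate 1 peak and the replicate 2 peak lay 107.0 bp apart.

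In replicate 1, the shared peaks were mostly its stronger ones. The 10 shared peaks had a median score of 232.78 and ranged between 87.05 and 843.29; the 22 others had a median of 79.19 and ranged between 72.38 and 282.57. The ranges overlapped, but 9 of the 10 shared peaks and 4 of the 22 others exceeded the list median of 107.66. Of the 6 window peaks among the highest 10% of the list, which began at a score of 262.61, replicate 2 met 5, against 47.1% of the 800 such peaks in the list. Of those in the next 10% it met 0 of 2 (16.5% of the list's peaks there), in the next 30% it met 4 of 5 (6.12%), and in the lowest 50% it met 1 of 19 (2.60%). That 1 was the weak peak beside the strongest site. These shares rest on few peaks and are only a description, since sharing between the replicates entered the choice of the window.

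In replicate 2, the window's peaks were mostly weak. Their scores ranged between 75.71 and 331.50 with a median of 89.91, against a median of 107.85 for the whole list, and only the strongest site exceeded that list median. Apart from it, the shared sites ranked between 434 and 759 of 851. The 10 peaks were 270 to 1066 bp wide, with a median of 410 bp, against 353 bp in the whole list. In replicate 1 the 32 peaks had a median width of 187 bp, against 175 bp in the whole list.

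**Figure D3:**
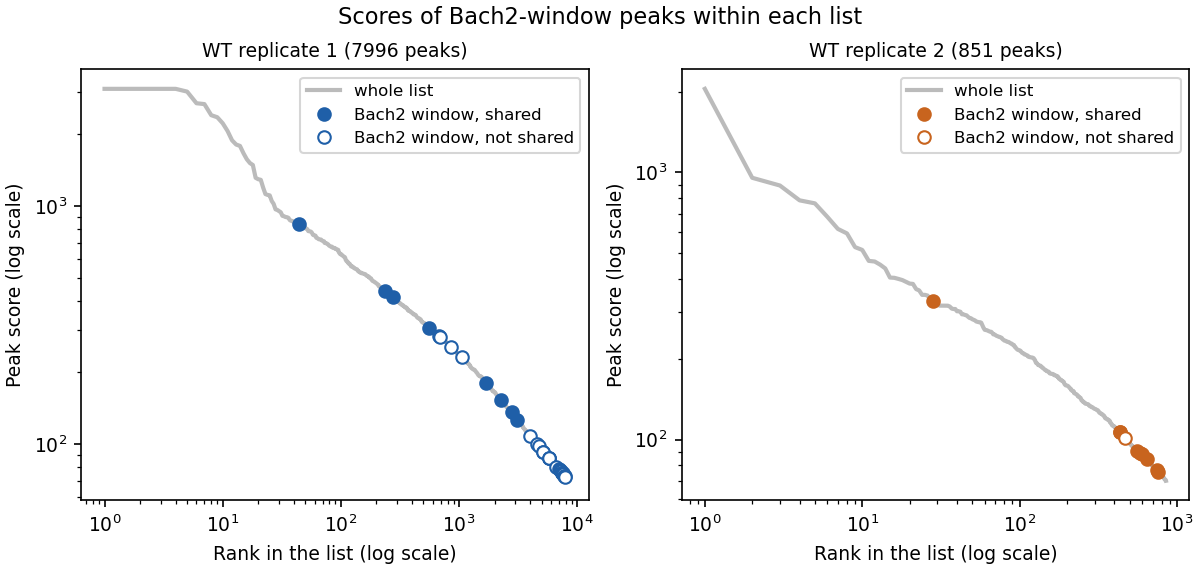
Peak score against rank in the list, both on log scales, for WT replicate 1 and WT replicate 2; grey lines are the whole lists, filled points the shared peaks of the Bach2 window and open points its other peaks. The strongest site ranks 44 in replicate 1 and 28 in replicate 2, and the other replicate 2 peaks of the window rank 434 or lower.

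One replicate 2 peak had no counterpart. It lay between the clusters, from 32417970 to 32418284, with a score of 101.59 (rank 468), which ranked 4 among the 10. The nearest replicate 1 peak was 3.03 kb away, from 32421313 to 32421458, with a score of 87.41 (rank 5722). This replicate 2 peak scored higher than 6 of the 9 that met a replicate 1 peak.

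Inside the clusters, 3 of the stronger replicate 1 peaks also had no counterpart. In the second cluster, the peak from 32492538 to 32492899 had a score of 282.57 (rank 697) and the peak from 32480285 to 32480591 a score of 231.10 (rank 1059). In the first, the peak from 32367689 to 32367967 had a score of 254.73 (rank 860). Each scored above 5 of the 10 shared replicate 1 peaks.

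The remaining 19 replicate 1 peaks without a counterpart scored between 72.38 and 108.60. Inside the first cluster there were 2, from 32348842 to 32348996 with a score of 72.38 (rank 7890) and from 32367525 to 32367675 with a score of 78.52 (rank 7032), which lay 13 bp from the stronger unshared peak of that cluster. Inside the second cluster there were 4. They ran from 32474880 to 32475024 with a score of 79.86 (rank 6655), from 32478318 to 32478494 with 75.32 (rank 7507), from 32486323 to 32486450 with 98.15 (rank 4745) and from 32492188 to 32492359 with 87.07 (rank 5756). Of the 13 outside the clusters, 6 lay between them. Beside the one already named near the unshared replicate 2 peak, these ran from 32389621 to 32389815 with a score of 78.16 (rank 7152), from 32430901 to 32431084 with 92.51 (rank 5158), from 32438446 to 32438541 with 74.60 (rank 7556), from 32450366 to 32450555 with 100.17 (rank 4510) and from 32450682 to 32450830 with 92.37 (rank 5173). The stretch between the clusters was thus not empty in either WT library, but no site in it was shared.

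In the parts of the window outside the stretch spanned by the clusters, replicate 1 alone had peaks. All but the one scoring 108.60 were near the bottom of its list. To the left of the first cluster they ran from 32266779 to 32266971 with a score of 73.59 (rank 7820), from 32304179 to 32304372 with 108.60 (rank 3962) and from 32336785 to 32336953 with 75.26 (rank 7519). The last of these lay only 432 bp before the first cluster, beside the strongest site. To the right of the second they ran from 32568392 to 32568527 with a score of 76.85 (rank 7325), from 32647297 to 32647441 and from 32702152 to 32702306 with 75.77 each (rank 7394), and from 32743979 to 32744117 with 73.62 (rank 7608, tied with other peaks). The right part of the window, after 32512955, held no replicate 2 peak.

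The left edge of the window cut close to a further shared site. At 13.4 kb outside it, replicate 1 had a peak from 32236253 to 32236556 with a score of 411.36 (rank 283) and replicate 2 one from 32236185 to 32236550 with a score of 79.52 (rank 704). That site lay 100.8 kb from the first cluster, so it joins neither cluster at a gap of 50 kb. On the right, the nearest replicate 1 peak outside the window was 137 kb away, from 32887037 to 32887256, with a score of 115.90 (rank 3567) and no replicate 2 counterpart. The nearest shared site on that side was 11085.8 kb away, from 43835814 to 43836147, scoring 340.42 in replicate 1 and 130.24 in replicate 2.

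How the peaks divided depended on the gap allowed and on which peaks were joined. With all replicate 2 peaks joined at 50 kb, the unshared peak between the clusters bridged the gap, and all 10 formed 1 chain over 175.6 kb. With all replicate 1 peaks, 28 of the 32 formed 1 chain over 246.1 kb. At a gap of at most 100 kb the shared sites also formed 1 cluster. At a gap of at most 25 kb they formed a group of 6 replicate 1 peaks with the limits of the first cluster, a single peak from 32462110 and a group of 3 from 32488336 to 32512918, over 24.6 kb. The strongest site of the second cluster then stood alone. At that gap each list by itself was also divided: replicate 1 into chains of 11 peaks, from 32336785 to 32389815, and 15 peaks, from 32421313 to 32512918, and replicate 2 into chains of 5, from 32337334 to 32375218, and 3, from 32488364 to 32512955, with the remaining peaks of each list single.

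Peaks in the window were closer together than in the lists at large. Their positions entered the choice of the window, so this spacing is only a description. In replicate 1 the median distance to the nearest other peak was 1.98 kb in the window, against 19.2 kb in the whole list. In replicate 2 it was 5.88 kb in the window, against 148 kb in the whole list. The genome was also divided into 5288 other windows of the same width, aligned with that of Bach2. The Bach2 window held the most peaks of replicate 1, 32 against at most 28 elsewhere, and the most of replicate 2, 10 against at most 7. It also held the most shared peaks, 10 against at most 6, while the median of the other windows was 0 in each case. These ranks favour Bach2, because its window was laid around its peaks and the others begin and end at arbitrary positions.

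**Figure D4:**
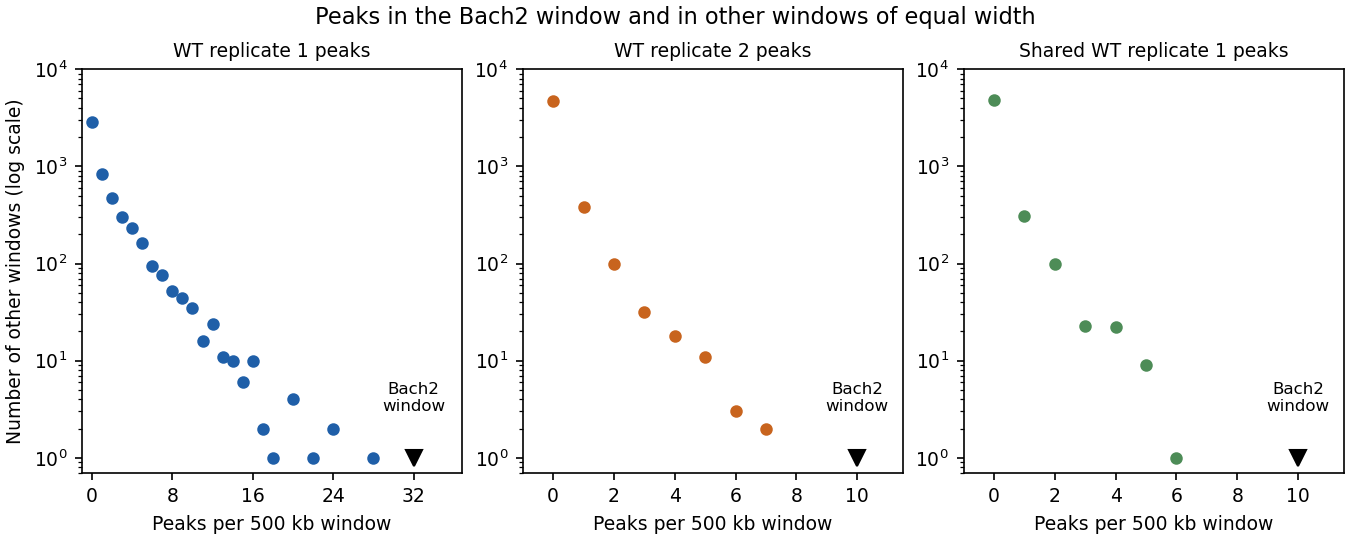
Number of other 500 kb windows (log scale) that hold a given number of WT replicate 1 peaks, WT replicate 2 peaks or shared WT replicate 1 peaks; the triangle marks the count of the Bach2 window. The Bach2 window stands at 32, 10 and 10 peaks, and the fullest other windows at 28, 7 and 6.

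The window ranked lower when weak peaks were left out of every window. Counting only scores of at least 100, it held 14 replicate 1 peaks, and 4 other windows held more, with up to 23. It held 4 such replicate 2 peaks, with 6 other windows above it, and 3 such shared peaks, with 9 above it and 16 tied. Those 3, whose peaks scored at least 100 in both lists, were the strongest site and the first 2 sites of the second cluster.

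Over the genome, 123 clusters held at least 2 shared replicate 1 peaks, and 15 of them held only 1 replicate 2 peak. The first Bach2 cluster was 1 of 3 that held 5 replicate 2 peaks, the most of any. The others lay on chromosome 19 from 53495480 to 53539439, over 44.0 kb, and on chromosome 8 from 129357819 to 129406110, over 48.3 kb. The first Bach2 cluster held 6 shared replicate 1 peaks, with a highest score of 843.29. The chromosome 19 cluster held 5, with a highest score of 384.38, and the chromosome 8 cluster 5, with a highest score of 427.78. The 6 include the weak peak of 87.05 beside the strongest peak, and 1 replicate 2 peak covered both. Counted by replicate 2 peaks, each of the 3 clusters held 5. The second Bach2 cluster, with 4 replicate 2 peaks, was 1 of 10 of that size. Both standings are a description, since the clusters entered the choice of the window. Counting only scores of at least 100 in both lists, the first cluster was reduced to its strongest site and the second to its first 2 sites. The sites that dropped out had replicate 1 scores of 126.70 to 413.94. They fell below the cutoff in replicate 2, where they scored 75.71 to 90.66.

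Where the peaks lie within Bach2 was not analysed here, because no gene annotation or sequence of mm9 was used. In the RefSeq annotation of another build, GRCm38.p6, which was used for gene order only, Bach2 lies between the protein-coding genes Map3k7 on the side of lower coordinates and Gja10, Casp8ap2 and Mdn1 on the other. Map3k7 encodes the kinase TAK1, which relays TGF-β and inflammatory signals, and Gja10 encodes a connexin of gap junctions. The peaks are therefore described by position, and none is assigned to a promoter, an exon or an intron of Bach2 or to a neighbouring gene. These libraries do not measure Bach2 RNA.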

How the data were processed

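Samples were grouped by their titles into KO ChIP (1 library), WT ChIP (2 libraries) and input (3 libraries, not analysed here). The authors deposited 1 peak list for each ChIP library. CASAVA, Bowtie2, MACS 1.4 and the build mm9 are named in the submitters' processing notes; those sources state neither the settings, nor the control of each call, nor the scale of the score. Per the labels' protocols, fragments of 150 to 350 bp were read from one end at 35 or 50 bp. The score deposited by the authors was used only to rank and filter peaks within a list. Positions are in mm9, counted from 1. Lists were read with Python 3.11.15, and overlaps, merging and chaining were tested on simulated data. Other windows were tiled over chromosomes 1 to 19, X and Y, with mm9 lengths from GenomeInfoDb 1.38.1. All peaks of the window are named; outside it, the nearest peaks, and clusters with at least as many replicate 2 peaks as the larger Bach2 cluster. The window, the clusters and these rules were chosen with earlier results of these data known. The alternatives were a score of at least 100, merging of peaks within 500 bp, a window extended by 100 kb on each side, a reciprocal overlap of 50%, midpoints within 250 bp, gaps of 25 and 100 kb, windows shifted by 250 kb and leaving out each WT replicate.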

Additional observations from a re-analysis of the deposited data

How the results depend on the processing

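Of the 30 alternatives computed, 20 stayed within 1.5 times their main count or rank. These 20 include the KO count, which was 0 under every setting tried. That count could not change, since the KO list had 0 peaks on chromosome 4. Also among the 20 is the 10 without replicate 1, which counts all replicate 2 peaks of the window, shared or not. The 2 clusters without replicate 2, described below, are among them too, though they were other groups of peaks. A score of at least 100, required in both lists for a shared peak, left 14 replicate 1 peaks and 4 replicate 2 peaks in the window. It also left 3 shared peaks and 1 cluster. The window's rank among windows of equal width moved to 5 by replicate 1 peaks, 7 by replicate 2 peaks and 10 by shared peaks. The lower counts follow from a threshold that removes peaks; the cause of the change in rank was not tested. A gap of at most 100 kb gave 1 cluster. A gap of at most 25 kb gave 2, but the second lost its strongest site and shrank to 24.6 kb, against 50.8 kb. Leaving out a WT replicate, the peaks without a KO counterpart numbered 10 to 32 (10 without replicate 1, 32 without replicate 2), and the clusters 1 to 2; the 2 without replicate 2 were a chain of 28 peaks and a pair at the right edge, not those of the shared sites. The planned gene locations and T-box motifs need an mm9 genome and annotation and were not run. No paired analysis was possible because only the WT ChIP group has numbered lists: the KO has 1 library, and inputs were not used. Unknown depth limits every statement about a missing peak.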
